A study of Mus musculus with 23 samples.

Results

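The comparison described here takes PLET1+ thymic epithelial cells (TECs) of control mouse embryos at embryonic stages E12.5 (3 libraries) and E14.5 (3 libraries), 6 of the 23 RNA-seq libraries of the series. They were chosen by their labels alone, and the question they address is which genes and functions rise and which fall as these cells mature over 2 days without a deliberate change to Notch signaling. Each library was made from 100 cells sorted from microdissected fetal thymus. The control embryos are labelled as wild type, strain C57BL/6. By the study's methods they came from the same cross as the conditional knockouts, Foxn1Cre;Rbpj FL/+ with Rbpj FL/FL, so every control carries at least 1 floxed Rbpj allele. Whether a control also carries Cre is not given in the sources used here. A further 6 libraries, of PLET1+ cells from Foxn1Cre Rbpj FL/FL embryos (Rbpj cKO; 3 at E12.5 and 3 at E14.5), are used beside the controls. In these, Cre is driven from Foxn1, a gene of TECs, and removes Rbpj, the DNA-binding partner of Notch. The other libraries of the series, PLET1- cells and cells with forced Notch activity, are not compared here. They do enter the filter on low counts, the scaling of the libraries and the joint fit of the spread. The PLET1- libraries also enter the fit of the E14.5 batch term. Replicates 1 and 2 at E12.5 are labelled batch 1 and replicate 3 batch 2, while replicates 1 and 2 at E14.5 are labelled batch 3 and replicate 3 batch 4. No batch holds both ages, so age and batch cannot be told apart, and nothing in the labels ties a library to a given number of embryos. The p-values therefore rest on the spread between libraries within groups, estimated over all 23 libraries of the series and not over the 6 compared alone.

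TECs arise from the endoderm of the third pharyngeal pouch and build the 2 compartments in which T cells are made. Cells of the cortex (cTECs) present peptides on MHC molecules to select useful T cells, and for this carry a thymus-specific proteasome. Cells of the medulla (mTECs) display tissue-restricted proteins to remove self-reactive T cells, and depend on the NF-kB pathway through receptors such as RANK and CD40. The transcription factor FOXN1 starts and sustains the differentiation of both. PLET1 is a surface protein of the founder cells of the organ, from which the sort selected the cells. Parathyroid cells arise from the same pouch and at these ages lie next to the thymus.

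Between 24306115 and 65623103 reads were counted in genes per library at E12.5, and between 28284253 and 48312976 at E14.5. Of 50123 annotated genes, 16718 to 18587 were detected at E12.5 and 16546 to 20350 at E14.5. Mitochondrially encoded genes took 9.30% to 14% of the counts at E12.5 and 4.50% to 9.54% at E14.5, where replicate 1 held the highest share. Log-scale correlations ran from 0.89 to 0.909 within E12.5, from 0.93 to 0.969 within E14.5, and from 0.873 to 0.893 between the ages. The labelled cell type was checked against defining markers. Summed over 10 TEC identity genes, normalised read counts (CPM, counts scaled to a common library total) were 4268 to 5510 CPM at E12.5 and 6806 to 7221 CPM at E14.5, while summed endothelial markers reached 16.4 CPM at most and erythroid markers 5.94 CPM. Markers of some other cell types moved with age without a call. Mesenchyme markers summed to 20.7 to 90.1 CPM at E12.5 and 6.81 to 24.4 CPM at E14.5, with 11 of 14 tested below 0 and a median log2 difference of -1.73. Twist2, a factor of mesenchyme, was at 8.94, 4.43 and 1.43 CPM and then 0, 0 and 0.0237 CPM (adjusted p = 0.171), and Pdgfra, a growth factor receptor of mesenchyme, at 0.166 to 15.96 CPM and at most 0.109 CPM (adjusted p = 0.239). Haematopoietic markers summed to 8.05 to 37.5 CPM at E12.5 and 23.4 to 36.2 CPM at E14.5. Of these 20 genes, 14 were at 0 in all E12.5 libraries and 10 in all E14.5 libraries, among them Cd3e, Il7r, Rag1, Lyz2 and C1qa at both ages. Most of the sums came from Lck and Cd68, named after their values were seen. Lck, a kinase of T cells, was at 14.4, 26.9 and 0.483 CPM at E12.5 and at 21.4, 15.6 and 22.4 CPM at E14.5. Cd68, of macrophages, was at 6.30 to 9.44 CPM and 4.05 to 14.9 CPM. Only 6 of the 20 were tested, 5 of them above 0 (median 4.16, or 1.39 with genes at 0 set to a bound of 3 counts). Coro1a, a coat protein of leukocyte actin, was at 0 at E12.5 and at 0, 1.96 and 2.45 CPM at E14.5, and Aif1, of macrophages, at 0 and then at 0, 0.363 and 1.59 CPM, both named after their values were seen. Parathyroid genes set libraries apart within each age. Their sum was 1532, 1651 and 9344 CPM in E12.5 replicates 1, 2 and 3, and 19.6, 441 and 28.6 CPM in E14.5 replicates 1, 2 and 3. In each group of 3, 1 library came from a male by its Xist and Y-linked counts.

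Of 19140 genes tested, 185 passed an adjusted p of 0.05 (0.967% of the genes tested; edgeR quasi-likelihood test, Benjamini-Hochberg). Far more rose than fell. At E14.5, 159 genes were higher (0.831%) and 26 lower (0.136%), so 86.0% of the calls were increases. The 3 libraries of each age did not overlap for 158 of the genes called higher and for all 26 called lower, where 11.5% and 8.82% of all genes tested were apart in those directions. Genes called higher were low at E12.5, with a median of the mean levels of 2.48 CPM at E12.5 and 50.7 CPM at E14.5, and 32 of them had no count in any E12.5 library. Genes called lower were already abundant, with medians of 166 CPM at E12.5 and 53.8 CPM at E14.5, and none of them was at 0 in all E14.5 libraries. Where a fold could be fitted, its median was 11.2 over 112 genes called higher and 3.14 over 25 called lower. The calls used these same values, and a gene with no E12.5 count passed the filter on low counts only through other libraries. These levels and folds are thus set in part by the choice of genes. The median log2 difference of all genes tested was 0.19, against 0.36 with scaling to the housekeeping genes Hprt and Ywhaz, under which 110 genes were called higher and 12 lower, an increase in 90.2% of the calls.

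The count of calls depended on single libraries. Fits with each control library left out in turn called 96, 92 and 149 genes without E12.5 replicate 1, 2 or 3 and 129, 90 and 105 genes without E14.5 replicate 1, 2 or 3. Of these, between 3 (without E14.5 replicate 2) and 14 (without E12.5 replicate 3) were lower at E14.5. With the mitochondrial share of each library as a covariate 79 genes were called, and with no library but the 6 compared 55. Within the earlier batch of each age, 2 libraries against 2, no gene was called by edgeR's quasi-likelihood test, while 1926 of 14655 genes had an unadjusted p under 0.05. In each of these fits, all of the 185 genes that were tested kept the direction of their difference. The genes were chosen by that difference in the same libraries, so a kept direction was largely set beforehand.

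**Figure D1:**
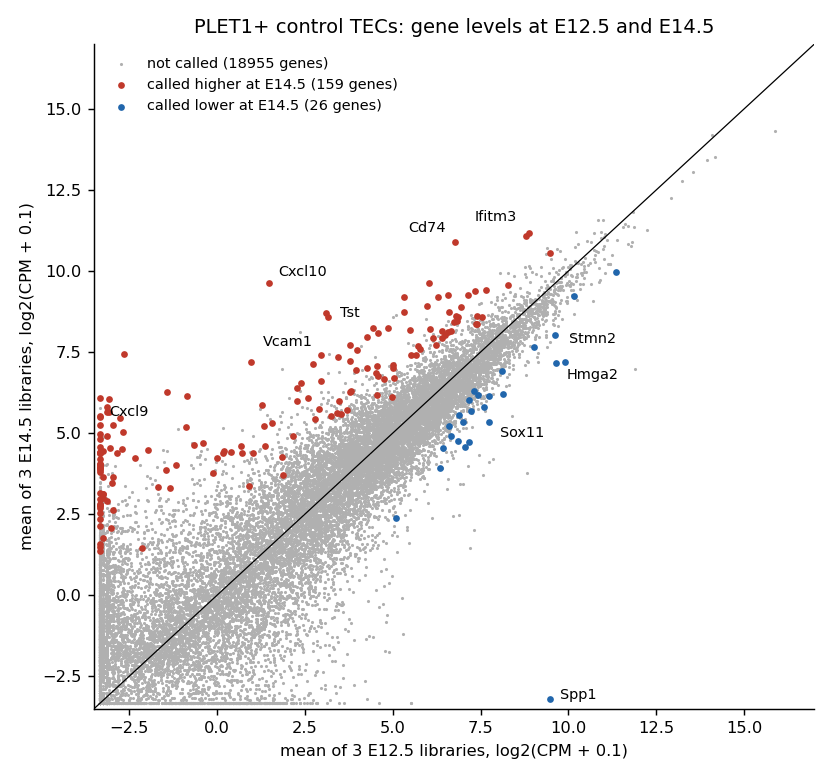
Each point is 1 of 19140 genes tested, at the mean level of the 3 E12.5 libraries (x axis) and the 3 E14.5 libraries (y axis), both as log2(CPM + 0.1), and the diagonal marks equal levels. The 159 genes called higher (red) lie mostly at low E12.5 levels, 32 of them at no count, while the 26 called lower (blue) lie at high E12.5 levels.

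Genes of antigen presentation by MHC class I were among those that rose. Of 17 genes tested in the class I list, 8 rose and none fell (B2m, H2-D1, H2-K1, Tap1, Psmb8, Psmb9, Psmb10 and Calr). Beside this and each list below stands the share of all genes tested, 0.831% called higher and 0.136% called lower. The median log2 difference of the list was 2.24, and 15 of the 17 were above 0. DESeq2 called 12 higher and 1 lower, and limma-voom 5 higher. In 1 gene of the list the ages were apart downward, as in 8.82% of all genes tested. B2m, the light chain that every class I molecule needs (ENSMUSG00000060802, chr2:122147686-122153083), stood at 117, 122 and 243 CPM in the E12.5 libraries and at 675, 816 and 515 CPM in the E14.5 libraries. All E14.5 libraries were above all E12.5 libraries, a log2 difference of 2.12 ± 0.33 (SE; 4.36-fold, n = 3 and 3, edgeR adjusted p = 0.00214). H2-D1, a classical heavy chain, was at 0, 0.0164 and 5.57 CPM and then at 98.5, 240.0 and 98.0 CPM (adjusted p = 0.000117). H2-K1, the other classical heavy chain of this strain, went from 0.0832, 10.99 and 8.42 CPM to 67.1, 230.5 and 119 CPM (adjusted p = 0.0247). The heavy chains were thus close to undetected in at least 1 E12.5 control library each and clearly present in every E14.5 control library. In the E12.5 cKO libraries H2-D1 was at 3.54, 2.01 and 20.8 CPM and H2-K1 at 6.87, 25.3 and 13.5 CPM. Heavy chain genes of this family are near-identical in parts, so that the division of reads among them is uncertain. That doubt holds for H2-Q7 as well. H2-Q7, a non-classical heavy chain, had no count at E12.5 and 2.69, 13.6 and 0.997 CPM at E14.5 (at least 75.1-fold higher, against a floor of 3 counts per library, adjusted p = 0.00203). The E12.5 cKO libraries did hold H2-Q7, at 3.33, 0.778 and 1.02 CPM.

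Some genes that make and load class I peptides rose too. Tap1, 1 chain of the peptide transporter, was at 3.74, 0.883 and 0 CPM at E12.5 and 8.04, 32.6 and 22.2 CPM at E14.5 (adjusted p = 0.0241). The immunoproteasome replaces the standard catalytic subunits of the proteasome and changes the peptides it cuts. Its subunit Psmb9 went from 0.499, 16.2 and 6.42 CPM to 104, 106 and 84.8 CPM (adjusted p = 0.0272). Psmb10 was present already at E12.5 (94.2, 89.3 and 104 CPM) and reached 351, 273 and 205 CPM (log2 difference 1.501 ± 0.28, adjusted p = 0.0122). The 2 subunits thus started from different levels. Psmb8 had no count at E12.5 and 13.5, 4.98 and 1.80 CPM at E14.5 (at least 88.2-fold higher, adjusted p = 0.0403). Of 7 catalytic subunits tested, 4 rose, namely these 3 and the thymoproteasome subunit Psmb11, and none fell. Calr, a chaperone of class I folding, rose less, from 188 ± 26.2 CPM to 381 ± 68.9 CPM (SD, n = 3 each, adjusted p = 0.0411).

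B2m, H2-D1 and H2-Q7 were called with each of the 6 libraries left out in turn. H2-K1 was lost without E12.5 replicate 3 and without E14.5 replicate 2 or 3 (adjusted p up to 0.121). Psmb10 was lost without E12.5 replicate 1 or 2 or E14.5 replicate 1 (up to 0.0985), and Psmb9 without E12.5 replicate 3 or any E14.5 library (up to 0.148). Tap1 needed E12.5 replicates 2 and 3 and E14.5 replicates 2 and 3 (up to 0.139). Psmb8 and Calr were called in none of these fits (up to 1.0 and 0.264). Psmb8 was at 0 in every E12.5 library, so leaving out an E12.5 library does not measure how far its call rests on it. The number of class I genes called lay between 3 and 5 in them.

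MHC class II molecules present peptides to CD4 T cells. In the list of 13 class II genes, 2 of which had no count at E12.5, 12 were tested, 3 rose (H2-Ab1, H2-Eb1 and Cd74) and none fell, with a median log2 difference of 3.24. It was 2.96 with genes at 0 set to their bound. H2-Eb1, a beta chain (ENSMUSG00000060586, chr17:34305877-34316199), was at 20.0, 13.1 and 24.4 CPM and then at 290.2, 297 and 161 CPM, 3.62 ± 0.46 on the log2 scale (12.3-fold, adjusted p = 0.000333). H2-Ab1, the other beta chain, went from 587, 552 and 196 CPM to 3508, 1665 and 1308 CPM (2.37 ± 0.35, 5.16-fold, adjusted p = 0.00141). Cd74, the invariant chain that guides class II molecules to the endosome, went from 214, 67.7 and 48.7 CPM to 3401, 1259.9 and 999 CPM (4.02 ± 0.64, 16.2-fold, adjusted p = 0.00314). For these 3 genes the ages did not overlap and the call held without any 1 library. E14.5 replicate 1 was the highest library for H2-Ab1 and Cd74. H2-Aa, the alpha chain, behaved alike in level (17.1 to 51.4 CPM and then 214 to 532 CPM) but did not pass the test (adjusted p = 0.0661). Ciita, the master activator of class II genes, was at 5.57, 13.1 and 0.0371 CPM and at 8.11, 11.03 and 4.06 CPM, and the ages overlapped (adjusted p = 0.49).

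**Figure D2:**
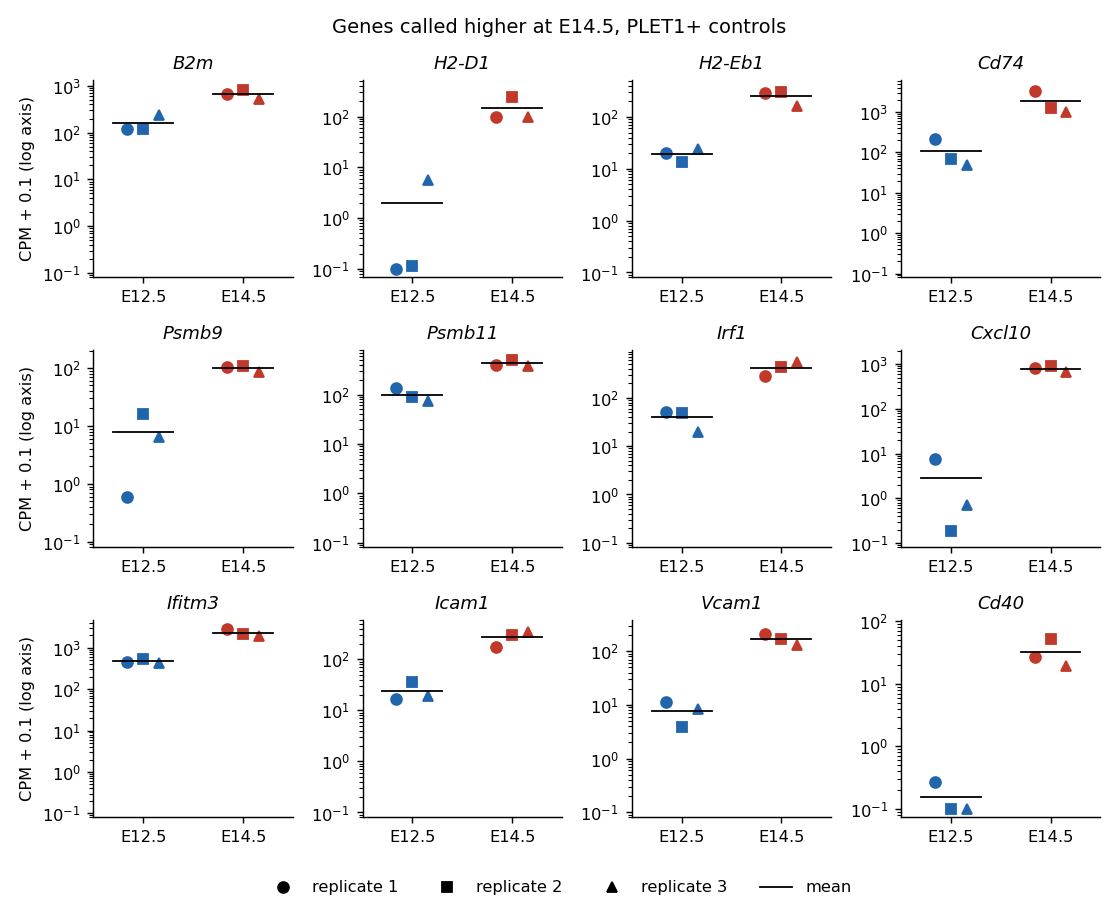
Levels of 12 genes called higher at E14.5, as CPM + 0.1 on a log axis, in the 3 E12.5 (blue) and 3 E14.5 (red) PLET1+ control libraries, with marker shape for the replicate and a line for the mean. In each panel the 3 E14.5 libraries lie above the 3 E12.5 libraries, and H2-D1, Cxcl10 and Cd40 have E12.5 libraries near 0.

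Interferon-response genes moved in the same direction as the MHC genes. All 20 in the list were tested, 5 rose (Irf1, Ifitm3, Xaf1, Isg15 and Cxcl10), none fell, and all 20 fitted differences were above 0. The median log2 difference of the list was 3.16, or 2.72 with genes at 0 set to their bound, against 0.19 for all genes tested. Their summed level was 534 to 897 CPM at E12.5 and 3508 to 4428 CPM at E14.5. Irf1, a transcription factor that interferon-gamma induces (chr11:53770014-53778374), was at 51.7, 47.6 and 19.7 CPM and then at 287, 426 and 560.2 CPM (3.43 ± 0.69, 10.8-fold, adjusted p = 0.0201). Cxcl10, an interferon-induced chemokine (chr5:92346638-92348889), went from 7.45, 0.0818 and 0.594 CPM to 799, 914 and 651 CPM (adjusted p = 0.0126). Ifitm3, a membrane protein that restricts virus entry, was high before and after, at 445, 536 and 428 CPM and then 2882, 2105 and 1866 CPM (2.22 ± 0.36, 4.67-fold, adjusted p = 0.00314). In these genes every E14.5 library was above every E12.5 library, from a near-absent start for Cxcl10 and a high one for Ifitm3. Xaf1, an interferon-induced regulator of cell death, was at 0.0832, 0 and 0.0742 CPM and then 42.3, 18.8 and 7.41 CPM (adjusted p = 8.19e-05). Isg15, a ubiquitin-like modifier, was at or near 0 in each E12.5 library and at 2.84, 6.61 and 2.83 CPM at E14.5 (adjusted p = 0.0232). Both had almost no reads in the E12.5 controls. In the E12.5 cKO libraries Xaf1 was at 2.35, 3.66 and 4.98 CPM, Cxcl10 at 0.510, 10.6 and 77.5 CPM, and Isg15 had no count.

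Cxcl10, Ifitm3 and Xaf1 were called without any 1 library. Irf1 was lost without E12.5 replicate 1 or 2 or E14.5 replicate 2 (adjusted p up to 0.19), and Isg15 was called only without E14.5 replicate 1. Between 3 and 5 genes of the list were called in those fits. Further genes of the same response were chosen after their values were seen. Ifngr1 and Ifngr2, the chains of the interferon-gamma receptor, rose from 1.65 to 22.6 CPM to 40.3 to 56.1 CPM (2.77 ± 0.42, adjusted p = 0.00214) and from 3.41 to 19.1 CPM to 40.8 to 79.9 CPM (2.69 ± 0.51, adjusted p = 0.0122). The call of Ifngr2 was lost without E12.5 replicate 1 or 3 or E14.5 replicate 2 (up to 0.1). The interferon-induced GTPases Irgm1 (0.0371 to 40.7 CPM, then 145 to 268 CPM, adjusted p = 0.0149) and Igtp (0.0928 to 0.900 CPM, then 32.0 to 94.9 CPM, adjusted p = 0.0183) rose, the former losing its call without E12.5 replicate 3 (0.0802) and the latter without any E12.5 library or E14.5 replicate 2 (up to 0.111). All 4 of these genes were apart between the ages. In the E12.5 cKO libraries Igtp was at 9.42, 22.3 and 26.4 CPM and Irgm1 at 23.6, 92.5 and 0.226 CPM. The chemokines Cxcl9 and Cxcl11 had no count at E12.5 and were at 25.3, 91.5 and 22.8 CPM and at 16.4, 49.3 and 5.51 CPM at E14.5. That is at least 608-fold higher for Cxcl9 (adjusted p = 0.00274) and at least 310.3-fold for Cxcl11 (adjusted p = 0.00829), which the annotation of this strain lists as a polymorphic pseudogene. Without E12.5 replicate 3 neither was called, nor was Cxcl11 without any other E12.5 library (up to 1.0). The libraries left out held no count of either gene, so these fits do not measure how far the calls rest on them.

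Promoter sequences are shown for these genes because the factors of the interferon response are known to read short letter patterns there. They are the 250 bases before the RefSeq start of each gene (GRCm38.p6), written 5′ to 3′ on the gene's strand, with capitals for matches to GAAANNGAA, a core of the interferon-stimulated response element, and to TTCNNNGAA, the gamma-activated sequence. These 5 were chosen because each holds a match.
Irf1, chr11:53769764-53770013 (plus strand): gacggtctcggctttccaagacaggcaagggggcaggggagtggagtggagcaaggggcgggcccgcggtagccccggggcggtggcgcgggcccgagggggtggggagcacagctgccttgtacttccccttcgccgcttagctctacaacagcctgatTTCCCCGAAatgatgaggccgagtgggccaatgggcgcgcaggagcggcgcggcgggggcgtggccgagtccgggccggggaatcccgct
Cxcl10, chr5:92348890-92349139 (minus strand): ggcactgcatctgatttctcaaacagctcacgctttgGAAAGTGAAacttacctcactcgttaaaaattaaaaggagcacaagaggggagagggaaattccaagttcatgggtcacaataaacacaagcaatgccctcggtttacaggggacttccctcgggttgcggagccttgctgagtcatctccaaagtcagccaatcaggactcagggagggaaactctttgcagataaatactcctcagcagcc
Isg15, chr4:156200819-156201068 (minus strand): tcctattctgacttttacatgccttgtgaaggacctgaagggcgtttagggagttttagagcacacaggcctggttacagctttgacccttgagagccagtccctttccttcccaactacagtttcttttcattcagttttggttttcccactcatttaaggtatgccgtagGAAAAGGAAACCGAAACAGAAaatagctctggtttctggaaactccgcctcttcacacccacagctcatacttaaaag
Igtp, chr11:58199306-58199555 (plus strand): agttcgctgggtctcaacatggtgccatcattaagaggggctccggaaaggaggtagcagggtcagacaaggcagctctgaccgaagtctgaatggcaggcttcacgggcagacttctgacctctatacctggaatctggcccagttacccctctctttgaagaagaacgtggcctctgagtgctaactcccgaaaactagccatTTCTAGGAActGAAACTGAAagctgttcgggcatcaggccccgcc
B2m, chr2:122147437-122147686 (plus strand): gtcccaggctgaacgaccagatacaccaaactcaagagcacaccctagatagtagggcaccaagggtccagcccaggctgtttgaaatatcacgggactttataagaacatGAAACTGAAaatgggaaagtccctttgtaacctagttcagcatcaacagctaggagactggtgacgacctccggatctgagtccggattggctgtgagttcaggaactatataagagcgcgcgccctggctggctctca
Irf1 held 1 match to TTCNNNGAA and none to the other pattern, Cxcl10 and B2m held 1 match each to GAAANNGAA, Isg15 held 3 overlapping matches to GAAANNGAA, and Igtp held both patterns. The windows of Ifitm3 and Xaf1, also called, held neither. Of the 8 class I genes called, B2m alone held GAAANNGAA, Psmb8 held TTCNNNGAA and the other 6 held neither. Both strands were searched, and TTCNNNGAA reads alike on either. Windows were at hand for 12124 of the 19140 genes tested, of which 6.145% held GAAANNGAA and 5.89% TTCNNNGAA. In the interferon list 10 of 18 windows held GAAANNGAA (55.6%) and 3 held TTCNNNGAA (16.7%), and in the class I list 3 of 15 held GAAANNGAA (20.0%) and 1 TTCNNNGAA (6.67%). Among the genes called higher with a window, 18 of 124 held GAAANNGAA (14.52%) and 15 held TTCNNNGAA (12.1%). Among the genes called lower with a window, 3 of 20 held GAAANNGAA (15.0%) and 0 held TTCNNNGAA. A match describes the letters only and was not tested against the expression values.

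Some adhesion molecules and genes of the NF-kB pathway also rose. These are examples chosen after their values were seen, not members of a list. Icam1, the ligand of the lymphocyte integrin LFA-1, was at 16.7, 35.9 and 18.8 CPM and then at 174, 295 and 344 CPM (3.50 ± 0.48, 11.3-fold, adjusted p = 0.000747). Vcam1, the ligand of integrin alpha4 beta1, went from 11.1, 3.76 and 8.17 CPM to 212, 172 and 129 CPM (4.41 ± 0.52, 21.2-fold, adjusted p = 0.000162). Nfkbia, the inhibitor that NF-kB induces against itself, went from 219, 249.7 and 132 CPM to 728, 598 and 721 CPM (1.81 ± 0.23, 3.52-fold, adjusted p = 0.000332). These 3 genes had wide gaps between the ages and were called without any 1 library. Nfkb1, which encodes the p50 subunit, rose from 38.3 to 120.4 CPM to 202 to 218 CPM (1.59 ± 0.31, adjusted p = 0.0159), a call lost without E12.5 replicate 1 or 2 or E14.5 replicate 1 or 2 (up to 0.129).

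Of 20 tested genes of the medullary list (mTEC genes), 2 rose and both encode receptors of the TNF family that activate NF-kB. The median log2 difference of the list was 4.37, or 3.63 with genes at 0 set to their bound, with 19 of 20 above 0. Cd40 (chr2:165055627-165072948) was at 0.166, 0 and 0 CPM at E12.5 and at 26.5, 51.6 and 19.3 CPM at E14.5 (adjusted p = 0.00137), though without E12.5 replicate 3 it was not called (1.0). That replicate held no Cd40 count, so the fit without it does not measure how far the call rests on it. Tnfrsf11a, the gene of RANK, was at 0, 0 and 5.31 CPM and then at 15.1, 8.85 and 6.98 CPM (adjusted p = 0.0144), and was not called without any of the E12.5 libraries (up to 1.0). RANK transcripts were thus counted in all E14.5 libraries and in 1 of the E12.5 libraries, where the lowest E14.5 value lay close above. Keratins of the medulla had large differences that did not pass the test. Krt5 went from 99.0, 43.4 and 44.3 CPM to 291, 493 and 311 CPM (2.55 ± 0.65, adjusted p = 0.0765), Krt14 from 0, 23.2 and 0.0186 CPM to 51.2, 83.3 and 45.5 CPM (adjusted p = 0.175), and Krt17 from 0.915, 31.7 and 70.4 CPM to 151, 740.5 and 308 CPM (3.71 ± 1.03, adjusted p = 0.112). For each keratin the ages did not overlap, which held in that direction for 11.5% of all genes tested. Aire, which drives expression of tissue-restricted proteins in mature mTECs, had no count at E12.5 and was at 3.38, 3.51 and 0 CPM at E14.5. The fit gave Aire no finite error, so its test cannot decide whether it changed. Cldn3 and Cldn4, claudins of medullary precursors, overlapped between the ages at 0.540 to 40.2 CPM and 1.56 to 6.58 CPM, and at 16.5 to 66.9 CPM and 48.0 to 166 CPM. Epcam, a general epithelial adhesion protein, was at 572 to 709.8 CPM and 692 to 946 CPM (adjusted p = 0.473).

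In the cortical list (genes of cTECs and of the FOXN1 programme), 1 of 17 tested genes rose, where 0.831% of all genes tested did. Above 0 were 12 of the 17, with a median log2 difference of 0.76. The gene called was Psmb11, the catalytic subunit particular to the thymic cortex (ENSMUSG00000072423, chr14:54625310-54629556). It was at 133, 87.8 and 72.9 CPM and then at 404, 490.4 and 386 CPM (2.11 ± 0.41, 4.32-fold, adjusted p = 0.0141), with the call lost without E12.5 replicate 1 or 2 or E14.5 replicate 2 (up to 0.144). Foxn1 (chr11:78357577-78386558) was higher in each E14.5 library, at 84.7, 206 and 142 CPM against 37.3, 19.8 and 41.8 CPM, without passing the test (2.17 ± 0.73, adjusted p = 0.22). Prss16, a protease of cTECs that shapes class II peptides, was at 461, 380.4 and 209 CPM and 610.5, 1208 and 919.7 CPM (1.46 ± 0.37, adjusted p = 0.0734). Its ages did not overlap either. Other cortical genes did not pass either. Ctsl, the cathepsin that prepares class II molecules in the cortex, was at 1368 to 2487 CPM and 2948 to 3197 CPM (adjusted p = 0.314). Dll4, the Notch ligand that commits incoming cells to the T lineage, was at 2.496 to 9.06 CPM and 19.2 to 28.7 CPM (2.08 ± 0.87, adjusted p = 0.332), and Krt8, the keratin of cortical cells, at 938 to 1373 CPM and 2028 to 2567 CPM (0.95 ± 0.34, adjusted p = 0.247). These 3 genes were apart between the ages, as were 11.5% of all genes tested in that direction, and none passed the test. Ly75, the surface marker CD205, overlapped (61.1 to 140.0 CPM and 98.7 to 138 CPM, adjusted p = 0.642).

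The letters of the Psmb11 promoter are shown since GACGC is the core that FOXN1 binds, and Psmb11 is its best-known target in the cortex. Matches on either strand are in capitals.
Psmb11, chr14:54625060-54625309 (plus strand): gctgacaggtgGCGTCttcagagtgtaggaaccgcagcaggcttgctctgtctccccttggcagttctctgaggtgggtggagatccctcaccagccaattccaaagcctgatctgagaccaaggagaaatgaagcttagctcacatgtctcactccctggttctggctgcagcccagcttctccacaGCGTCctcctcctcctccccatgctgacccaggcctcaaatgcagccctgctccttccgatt
This window held 2 matches, both as GCGTC on the gene's strand. Of the 12124 windows of genes tested, 36.4% held the motif at least 1 time, of 124 windows of genes called higher 35 did (28.2%), and of 20 windows of genes called lower 11 did (55.0%). A core of 5 letters is found in many windows, and no test was made.

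TECs send chemokines, cytokines and growth factors to immature T cells. Of 17 such genes tested none passed, 8 were above 0 and 8 below, and the median log2 difference was 0.0. DESeq2 called 1 higher and 1 lower, and limma-voom 1 lower. Ccl25, the main chemoattractant of the fetal thymus, was at 4059, 4752 and 2038 CPM and 3409, 1117 and 1165 CPM (adjusted p = 0.444), and Il7, the survival cytokine of early T cells, at 870.1 to 1760.0 CPM and 1199.7 to 1574 CPM (adjusted p = 1). Cxcl12, which guides precursors, was at 84.5 to 100.8 CPM and 242 to 428 CPM (1.83 ± 0.47, adjusted p = 0.0794). Kitl, which supports early T-cell precursors, was at 195 to 262 CPM and 129 to 150.4 CPM (adjusted p = 0.379), and Pdgfa, a growth factor for the surrounding mesenchyme, at 231 to 354 CPM and 89.1 to 115 CPM (-1.56 ± 0.39, adjusted p = 0.0759). In each of these last 3 the libraries of the ages were apart, upward for Cxcl12 and downward for Kitl and Pdgfa. Of all genes tested 11.5% were apart upward and 8.82% downward.

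Several genes with small adjusted p among the increases were in none of the lists. Tst, a mitochondrial sulfur transferase (chr15:78399556-78405859), went from 13.0, 26.3 and 25.5 CPM to 269, 332 and 309 CPM (3.82 ± 0.32, 14.1-fold, adjusted p = 1.16e-05). Ly6e, a surface protein anchored by glycolipid, went from 47.1, 16.3 and 56.5 CPM to 568, 656 and 519.9 CPM (3.92 ± 0.38, 15.1-fold, adjusted p = 2.98e-05). Tmem176b, an ion channel of intracellular membranes, went from 127, 154 and 144 CPM to 765, 589 and 486 CPM (2.10 ± 0.20, 4.29-fold, adjusted p = 2.98e-05). The ages were far apart in all 3, which held without any 1 library. Tmem176b varied little at E12.5, while Ly6e ranged from 16.3 to 56.5 CPM there. In the E12.5 cKO libraries Tst was at 65.9, 64.6 and 77.0 CPM, above each E12.5 control. Its log2 difference between the ages was 2.04 in the cKO. Ly6e was at 45.6 to 133 CPM and Tmem176b at 107 to 131 CPM in the E12.5 cKO libraries. Genes that had no count at E12.5 included Msc, a repressor of the bHLH family (15.8, 37.2 and 31.9 CPM at E14.5, at least 369.8-fold higher, adjusted p = 2.98e-05), Fgl2, a secreted immune regulator (13.6, 18.7 and 22.1 CPM, at least 237-fold, adjusted p = 8.19e-05), and Tmem173, the DNA sensor adaptor STING (41.7, 40.6 and 30.9 CPM, at least 493-fold, adjusted p = 0.000887). None of these genes was counted in an E12.5 control library. Whether their transcripts were absent there or missed in capture was not tested. Reads were counted and not molecules, so a fold against 0 bounds the reads only. Some genes named elsewhere had uneven E12.5 counts, such as Irgm1 (4, 2486 and 2) and Tnfrsf11a (0, 0 and 286). Among the E12.5 cKO libraries the highest level was 6.27 CPM for Fgl2, 3.75 CPM for Tmem173 and 0.113 CPM for Msc. Lgals3, a galectin, had no count at E12.5 and 17.2, 18.5 and 26.3 CPM at E14.5 (at least 269.7-fold, adjusted p = 0.000117). Gsdmd, the pore-forming gasdermin, and Madcam1, an addressin for lymphocytes, likewise had none and reached 7.06 to 30.6 CPM (at least 204-fold) and 4.29 to 16.04 CPM (at least 116-fold). Il15ra, the chain that presents interleukin 15 to lymphocytes, was at most at 0.0371 CPM at E12.5 and at 95.9, 69.0 and 35.5 CPM at E14.5 (adjusted p = 8.19e-05), and Lpo, a lactoperoxidase, at most at 0.0416 CPM and then at 29.5 to 68.6 CPM (adjusted p = 8.19e-05). Like the genes above, these were counted in all E14.5 control libraries and had at most traces of reads in the E12.5 control libraries. Among the E12.5 cKO libraries Madcam1 reached 11.6 CPM and Lgals3 2.14 CPM, while Gsdmd and Lpo had no count. Tchh, trichohyalin, had no count at E12.5 and 32.1, 5.94 and 10.8 CPM at E14.5 (adjusted p = 0.0207). In the E12.5 cKO libraries Tchh was at 1.09, 6.50 and 0 CPM. Msc, Gsdmd, Madcam1 and Lpo were not called without E12.5 replicate 3 (1.0), and Tchh was lost without E12.5 replicate 1 or 2 (up to 0.191). Replicate 3 held no count of Msc, Gsdmd, Madcam1 or Lpo, so the fit without it does not measure how far their calls rest on it. Fgl2, Tmem173, Lgals3 and Il15ra held without any 1 library.

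Other increases were named after their values were seen, for genes whose products are known in TECs or in barrier epithelia. Il2ra, the alpha chain of the interleukin 2 receptor, and Skint8, of a family that thymic and skin epithelium express, had no count at E12.5 and were at 10.7 to 33.5 CPM (at least 275-fold higher, adjusted p = 0.00088) and 15.5 to 25.4 CPM (at least 269.6-fold, adjusted p = 0.000241) at E14.5, but not called without E12.5 replicate 3 (1.0). That replicate held no count of either gene, so the fit without it does not measure how far the calls rest on it. Cd44, a hyaluronan receptor, went from 0.0832 CPM at most to 26.3 to 56.2 CPM (adjusted p = 0.0111), lost without E12.5 replicate 1 or 2 (up to 0.0884). In the E12.5 cKO libraries Cd44 was at 0.986, 13.4 and 0.170 CPM. Perp, a desmosomal protein, went from 144, 100.7 and 41.7 CPM to 459, 688 and 697 CPM (2.74 ± 0.39, 6.68-fold, adjusted p = 0.00114), with the call kept in each such fit. Il2ra and Cd44 are also known from blood cells. Of 6 haematopoietic markers tested 5 were above 0 and none was called. The sums of the list were 8.05 to 37.5 CPM and 23.4 to 36.2 CPM, mostly from Lck and Cd68. The part of blood cells in Il2ra and Cd44 was not tested.

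Tissue dissociation can switch on genes of the immediate early response. Of 22 tested, 2 rose and none fell, 16 were above 0 and 6 below, and the median log2 difference was 0.70. In the Rbpj cKO none of the list was called higher and 2 were called lower. Zfp36, an RNA-decay factor, went from 34.0, 61.9 and 92.6 CPM to 237, 762 and 448 CPM (3.01 ± 0.64, adjusted p = 0.0263) and Ier3, a stress-response gene, from 0.250, 6.79 and 0.0186 CPM to 49.5, 66.0 and 60.8 CPM (5.32 ± 1.17, adjusted p = 0.0339). Both depended on several libraries. Zfp36 was called only without E14.5 replicate 1 or 3, and Ier3 only without E12.5 replicate 2. The summed level of the list was 2919 to 3430 CPM at E12.5, and 3552, 8340 and 6530 CPM in E14.5 replicates 1, 2 and 3. The part of this response in the other increases was not tested.

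Fewer genes fell. Those called included Hmga2 and Sox11, which are known from fetal and embryonic progenitors, a state that was not measured here. Fetal timing genes are high in early embryos and are shut down with age. Of 14 tested 1 fell, where 0.136% of all genes tested did, and the median log2 difference was -1.24. Hmga2, a chromatin protein of fetal stem cells (chr10:120361275-120476469), went from 1019, 865 and 500.1 CPM to 196, 83.5 and 154 CPM (-2.41 ± 0.51, 5.3-fold lower, adjusted p = 0.0263). The ages were clearly apart, but the call remained only without E12.5 replicate 3 (up to 0.2 in the other fits). Cdkn1c, an imprinted cell cycle inhibitor, was at 57.4, 46.0 and 60.3 CPM and 15.5, 10.3 and 9.69 CPM (-2.24 ± 0.53, adjusted p = 0.0516). Sox11, a transcription factor of embryonic progenitors, fell from 165, 284 and 194 CPM to 39.6, 26.6 and 54.3 CPM (-2.46 ± 0.44, 5.52-fold lower, adjusted p = 0.00847), lost without E12.5 replicate 2 or E14.5 replicate 2 (up to 0.0713).

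Among BMP and TGF-beta genes, 1 of 25 tested fell, where 0.136% of all genes tested did. Below 0 were 19 of 25, with a median log2 difference of -0.99. Id2, which blocks bHLH factors and is induced by BMP (chr12:25093801-25096092), went from 464, 505 and 1912 CPM to 146, 137 and 160.3 CPM (-2.40 ± 0.42, 5.28-fold lower, adjusted p = 0.00718). E12.5 replicate 3 was far above the other E12.5 libraries, and without it, or without E14.5 replicate 2, Id2 was not called (up to 0.07). Its relatives Id1 (126, 194 and 699 CPM, then 31.2, 64.6 and 43.6 CPM, adjusted p = 0.0807) and Id3 (249.8, 301 and 1151 CPM, then 116, 187 and 136 CPM, adjusted p = 0.105) had the same high library and did not pass. Bmp4, the ligand made by the thymus-forming part of the pouch, was at 75.5, 77.9 and 129 CPM and then at 10.04, 12.3 and 6.58 CPM (-3.36 ± 1.12, adjusted p = 0.217). Id3 and Bmp4 were named after their values were seen. That E12.5 library also held the highest parathyroid sum, 9344 CPM, and the part of such cells in the Id genes was not tested.

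**Figure D3:**
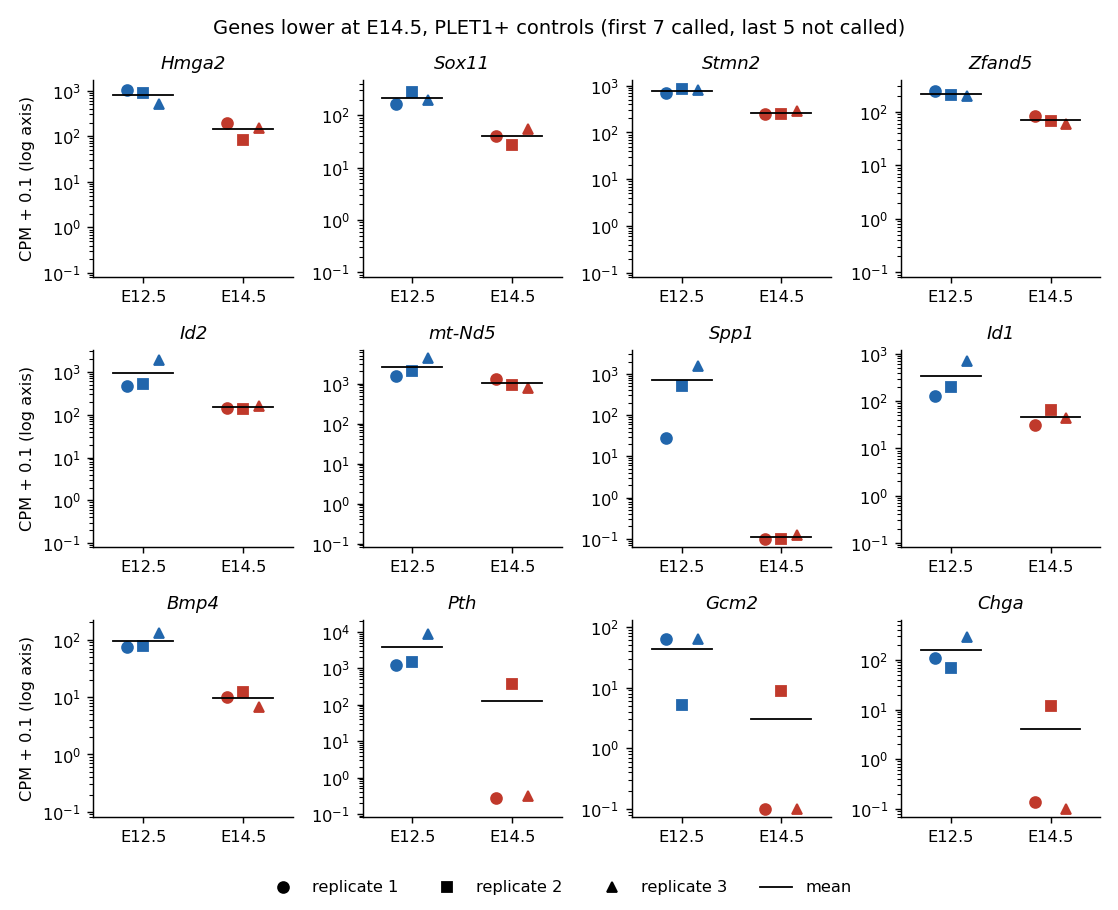
Levels of 12 genes lower on average at E14.5, as CPM + 0.1 on a log axis, in the 3 E12.5 (blue) and 3 E14.5 (red) PLET1+ control libraries, with marker shape for the replicate and a line for the mean. The first 7 panels are called genes and do not overlap between the ages, while the other 5 did not pass the test, and for Pth, Gcm2 and Chga E14.5 replicate 2 lies far above the other E14.5 libraries.

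Stmn2, a regulator of microtubules best known from neurons (chr3:8509360-8561606), had the smallest adjusted p among the decreases. It was at 703, 837 and 815 CPM and then at 242, 242 and 293 CPM (-1.60 ± 0.27, 3.03-fold lower, adjusted p = 0.00562), and was the only named decrease that kept its call without any 1 library. It supplied nearly all of the summed level of 10 neural and neural crest markers, which was 741 to 913 CPM at E12.5 and 247 to 311 CPM at E14.5. Of the 7 tested no other passed, but 6 were below 0, with a median log2 difference of -1.60. Apart downward were 3, as were 8.82% of all genes tested. Elavl4, an RNA-binding protein of neurons named after its values were seen, was at 9.94, 29.1 and 8.96 CPM and then at 0.0364, 1.53 and 4.32 CPM. The part of neural cells in the decreases was not tested. Zfand5, a regulator of the proteasome, went from 246, 203 and 195 CPM to 84.6, 68.1 and 58.5 CPM (-1.63 ± 0.29, adjusted p = 0.00829), lost without E14.5 replicate 2 or 3 (up to 0.0767). Ints6l, related to a subunit of the Integrator complex, went from 306, 265 and 277 CPM to 51.9, 91.6 and 78.3 CPM (-1.95 ± 0.34, adjusted p = 0.00718), lost without E14.5 replicate 1 (0.0553). In both the E12.5 libraries lay close to each other and well above E14.5. Wee1, a kinase that holds back mitosis, went from 119, 46.9 and 79.0 CPM to 14.9, 13.5 and 16.7 CPM (-2.40 ± 0.48, adjusted p = 0.017), lost without E12.5 replicate 1 or E14.5 replicate 1 or 2 (up to 0.143). Rflnb, a partner of filamin, fell from 47.7 to 171 CPM to 20.1 to 33.9 CPM (adjusted p = 0.00962), lost without E12.5 replicate 2 or E14.5 replicate 1 or 2 (up to 0.0887).

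The remaining named decreases rested on most of the libraries. Myl9, a myosin light chain, went from 113 to 198 CPM to 18.2 to 32.1 CPM (adjusted p = 0.0351), Rbm39, a splicing factor, from 1005 to 1347 CPM to 569 to 622 CPM (adjusted p = 0.021), Copz2, a coat protein of vesicles, from 78.7 to 177 CPM to 17.5 to 36.2 CPM (adjusted p = 0.022), and Cemip2, a hyaluronidase, from 74.8 to 125 CPM to 22.0 to 33.9 CPM (adjusted p = 0.0263). Myl9 and Rbm39 were called in no fit with a library left out (up to 0.214 and 0.141), and Copz2 and Cemip2 only in that without E12.5 replicate 3 (up to 0.166 and 0.213). Spp1, a secreted phosphoprotein, was uneven among the E12.5 libraries. It was at 28.4, 497 and 1590.0 CPM at E12.5 and at 0, 0 and 0.0237 CPM at E14.5 (adjusted p = 0.0169), and its call was lost without E12.5 replicate 2 or any E14.5 library (up to 0.138). E12.5 replicate 3 was the highest for Spp1, for the parathyroid genes and for the mesenchyme markers (90.1 CPM), and the part of such cells in these decreases was not tested.

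Mitochondrially encoded genes were lower on balance, with 1 of 13 called, 2 above 0 and a median log2 difference of -0.95. The gene called, mt-Nd5, a subunit of complex I, was at 1569, 2033 and 4282 CPM and then at 1331, 925 and 755 CPM (-1.28 ± 0.27, adjusted p = 0.0266). E12.5 replicate 1 and E14.5 replicate 1 lay close together, and without E12.5 replicate 2 or 3 or E14.5 replicate 2 or 3 it was not called (up to 0.195). mt-Nd6, encoded on the other strand, was at 393 to 858 CPM and 109.8 to 271 CPM (adjusted p = 0.0907).

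Parathyroid genes were lower at E14.5 in each of the 7 tested, with a median log2 difference of -2.57, but none passed the test. Pth, the hormone itself, was counted 29240, 91203 and 467415 times at E12.5 and 5, 20731 and 9 times at E14.5. Gcm2, the factor that specifies parathyroid cells, had 1497, 310 and 3437 counts and then 0, 484 and 0, and Chga, a protein of secretory granules, 2693, 4311 and 15697 counts and then 1, 644 and 0. E14.5 replicate 2 thus stood apart from the other E14.5 libraries in all 3 genes, which were named after their values were seen. Gata3, a factor of both parathyroid and early thymus, was at 43.9 to 79.3 CPM and 4.29 to 13.5 CPM (-2.57 ± 0.71, adjusted p = 0.11). In bulk libraries such as these, fewer cells of a type and less RNA per cell cannot be told apart.

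Of 24 tested transcription factors that pattern the pouch and the first TECs none was called. Above 0 were 7, and apart downward 6, as were 8.82% of all genes tested. The median log2 difference was -0.39, while DESeq2 and limma-voom each called 3 lower. Isl1, a LIM homeodomain factor of the pouch, was at 473, 635 and 197 CPM and then 186, 108 and 117 CPM (-1.54 ± 0.43, adjusted p = 0.112). Pax9, needed for the pouch to form a thymus, was at 168, 91.1 and 181 CPM and 80.1, 98.8 and 65.1 CPM (adjusted p = 0.36). Plet1, the gene of the sort marker, was at 26.8, 28.8 and 65.1 CPM and 17.9, 24.0 and 23.1 CPM (-0.77 ± 1.27, adjusted p = 0.864). All libraries were sorted for the PLET1 protein, so the level of its gene is set in part by the gate. None of these 3 genes passed the edgeR test. Fgfr2, the receptor through which mesenchymal FGFs drive TEC growth, was at 248 to 289.7 CPM and 157 to 226 CPM (adjusted p = 0.378). Ccnd1, a G1 cyclin, and Ccn1 (Cyr61), a YAP target, overlapped between the ages (adjusted p = 0.781 and 1).

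None of the signaling lists for Notch, WNT, SHH, FGF and EGF, YAP and TAZ or retinoic acid had a gene called by edgeR. DESeq2 called 2 Notch genes higher and 1 lower, and 2 FGF and EGF and 2 retinoic acid genes higher. It called 1 WNT and 1 SHH gene lower. By limma-voom 1 retinoic acid gene was called higher and 1 SHH gene lower. Notch genes were evenly split, with 13 of 26 above 0 and a median log2 difference of -0.08. Their target Hes1 was at 97.8, 70.4 and 232 CPM and 39.9, 33.3 and 49.6 CPM (-1.57 ± 0.39, adjusted p = 0.0679), and its relative Hey1 at 145, 156 and 43.9 CPM and 210.4, 206 and 178 CPM (0.97 ± 0.30, adjusted p = 0.172), so that these 2 targets of one pathway differed in sign without either passing. Among 27 WNT genes the median was -0.40. Fzd1, a receptor, was at 55.0 to 115 CPM and 11.1 to 18.0 CPM (adjusted p = 0.241), and Ctnnb1, beta-catenin, at 366 to 439 CPM and 216 to 365 CPM (adjusted p = 0.359). For 9 SHH genes it was -0.61, with Gli3, the repressor of the pathway, at 111 to 224 CPM and 38.3 to 93.2 CPM (-1.59 ± 0.39, adjusted p = 0.067). FGF and EGF genes (20 tested, median -0.13, or 0.10 with scaling to Hprt and Ywhaz), YAP and TAZ targets (15, median -0.39) and retinoic acid genes (16, median 0.34) had no call by edgeR. Dhrs3, which reduces retinal, was at 12.9 to 20.2 CPM and 57.0 to 88.2 CPM (2.06 ± 0.56, adjusted p = 0.106).

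Cell cycle genes leaned upward without a call. Of 26 DNA replication genes 18 were above 0 (median log2 difference 0.52), and of 21 mitosis genes 18 were (0.75). Summed levels were 2393 to 4121 CPM and 4051 to 5033 CPM for replication and 2259 to 3607 CPM and 4238 to 4409 CPM for mitosis, overlapping between the ages in the former only. Mcm6, of the replicative helicase, was at 93.4 to 219.6 CPM and 277 to 514 CPM (1.45 ± 0.37, adjusted p = 0.081), and Cdc20, which triggers anaphase, at 53.3 to 160.4 CPM and 252 to 380.4 CPM (1.70 ± 0.46, adjusted p = 0.106). Glycolysis genes were above 0 in 15 of 19 with a median of 0.98, but E14.5 replicate 1 differed from the other E14.5 libraries. Pfkl, phosphofructokinase, was at 32.2, 65.8 and 45.9 CPM and 60.2, 282 and 291 CPM (adjusted p = 0.29). Lysosome and autophagy genes (25 tested, median 0.63) included Lamp2, a lysosomal membrane protein, at 622, 541 and 328 CPM and 1139, 919 and 940.0 CPM (1.06 ± 0.25, adjusted p = 0.0516). Keratins (10 tested, 1.15) and epithelial junction genes (27, 0.25) had no call, Dsc2, a desmosomal cadherin, coming nearest at 96.2 to 236 CPM and 337 to 605 CPM (1.59 ± 0.39, adjusted p = 0.0614). In the basement membrane and integrin list 1 of 24 rose. Lama4, a laminin chain, was at 0.125, 0.752 and 0.0186 CPM and 7.71, 12.3 and 9.16 CPM (adjusted p = 0.0122, lost without E12.5 replicate 1 or 2, up to 0.129), against a list median of -0.49.

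**Figure D4:**
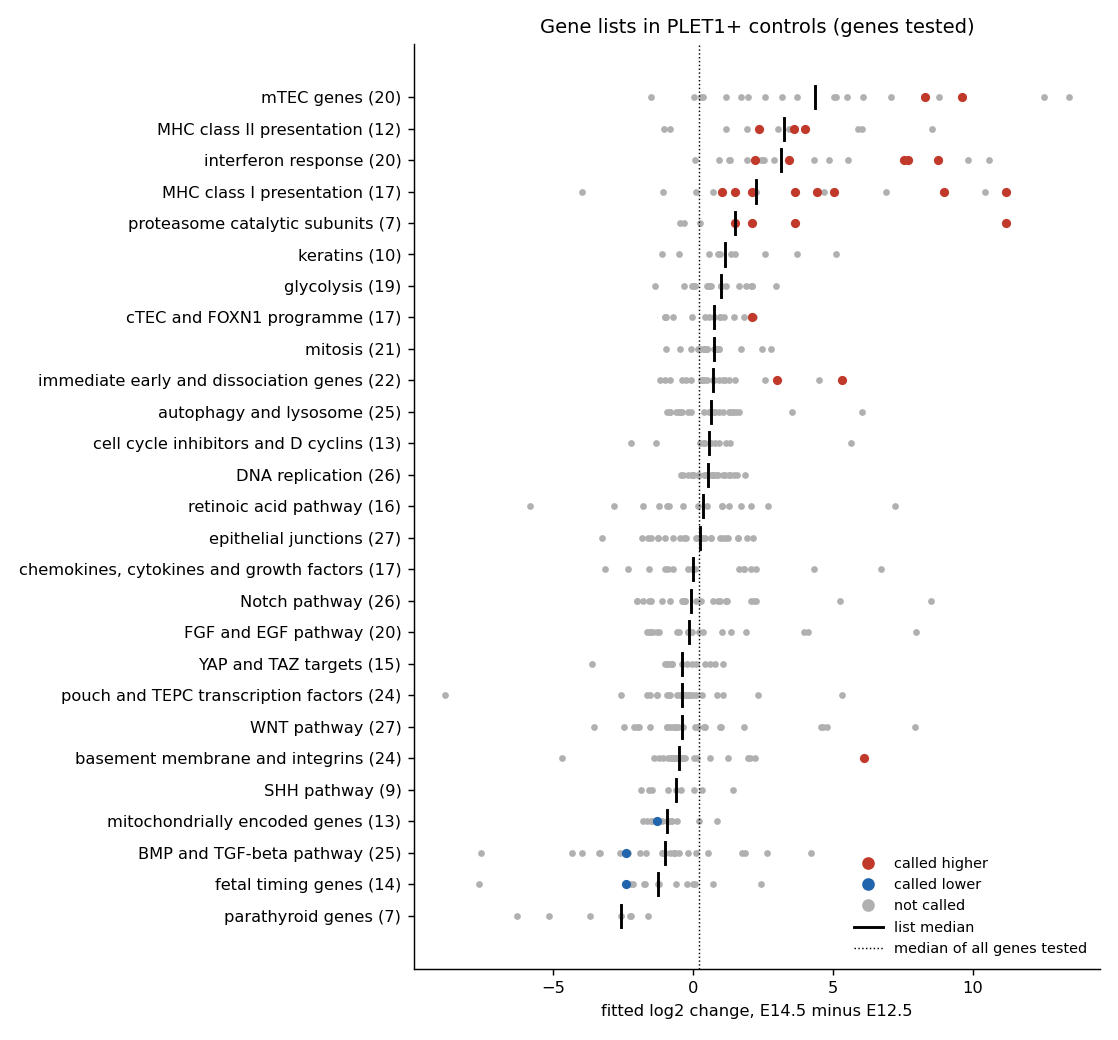
Fitted log2 difference (E14.5 minus E12.5, x axis) of each tested gene in 27 lists (rows, with the number tested), red for genes called higher, blue for genes called lower and grey for the rest; the bar is the list median and the dotted line the median of all genes tested, 0.19. Medullary, MHC, interferon and proteasome lists have medians of 1.501 to 4.37, and parathyroid and fetal timing genes medians of -2.57 and -1.24.

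The same comparison in the Rbpj cKO libraries gives littermate embryos in the same batches, with the same confounding of age and batch. There, 150 genes were called (0.784%), 106 higher (0.554%) and 44 lower (0.23%), and with scaling to Hprt and Ywhaz 135 higher and 2 lower. Of the 185 genes called in controls, 86 were called in the cKO too, which is 46.5% of the control calls and 57.3% of the cKO calls. The difference had the same sign in 155 of the 159 genes called higher, where 55.8% of all genes tested were above 0 in the cKO, and in all 26 called lower. The cKO libraries of the ages did not overlap for 122 of the 159 (7.99% of all genes tested) and for 22 of the 26 (6.89%). The median log2 difference of the genes called higher was 5.32 in controls and 3 in the cKO, and that of the genes called lower -1.69 and -1.31. Since the genes were selected by the control values, a smaller median in the cKO is no measure of a difference between the genotypes.

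By group, 4 of 17 class I, 4 of 12 class II, 6 of 20 interferon and 3 of 17 cortical genes tested rose in the cKO. In controls 8, 3, 5 and 1 did so. Over all genes tested, 0.554% rose in the cKO and 0.831% in controls. H2-Eb1 went from 12.4 CPM to 256 CPM on average in the cKO (4.44 on the log2 scale, adjusted p = 0.000165), Psmb11 from 133 to 708 CPM (2.66, adjusted p = 0.00397) and Irf1 from 67.9 to 475 CPM (3.32, adjusted p = 0.0302). Prss16, not called in controls, was called there (287 to 1273 CPM, 2.23, adjusted p = 0.00622). Hes1, a direct target of Notch, fell (139 to 32.4 CPM, -2.21, adjusted p = 0.00988), as did Hmga2 (804 to 94.1 CPM, -3.14, adjusted p = 0.00619) and Sox11 (292 to 38.3 CPM, -2.91, adjusted p = 0.00351). Tnfrsf11a was at 1.55 CPM and 2.998 CPM on average (adjusted p = 0.0682).

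Whether the change with age differed between genotypes was tested as an interaction, and no gene passed (0 of 19140, or 0.0%; lowest adjusted p 0.18 by edgeR's quasi-likelihood test). An unadjusted p under 0.05 was reached by 603 genes (3.15%), and DESeq2 called 193, limma-voom 0. The 5 genes with the smallest p were Fgl2, Lgals3, Madcam1, Zcchc4 and H2-Q7, and were all called higher in controls. Zcchc4, a methyltransferase of ribosomal RNA, was at 1.498, 0.883 and 0.315 CPM and then 18.95, 15.98 and 21.2 CPM in controls (24.3-fold, adjusted p = 0.00274), and at 33.7, 22.0 and 4.47 CPM and then 7.45, 15.4 and 9.96 CPM in the cKO. For Fgl2 the cKO libraries were at 3.84, 6.27 and 0 CPM at E12.5 and at 20.5, 58.1 and 25.8 CPM at E14.5, so that 2 E12.5 cKO libraries held counts where no control did.

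**Figure D5:**
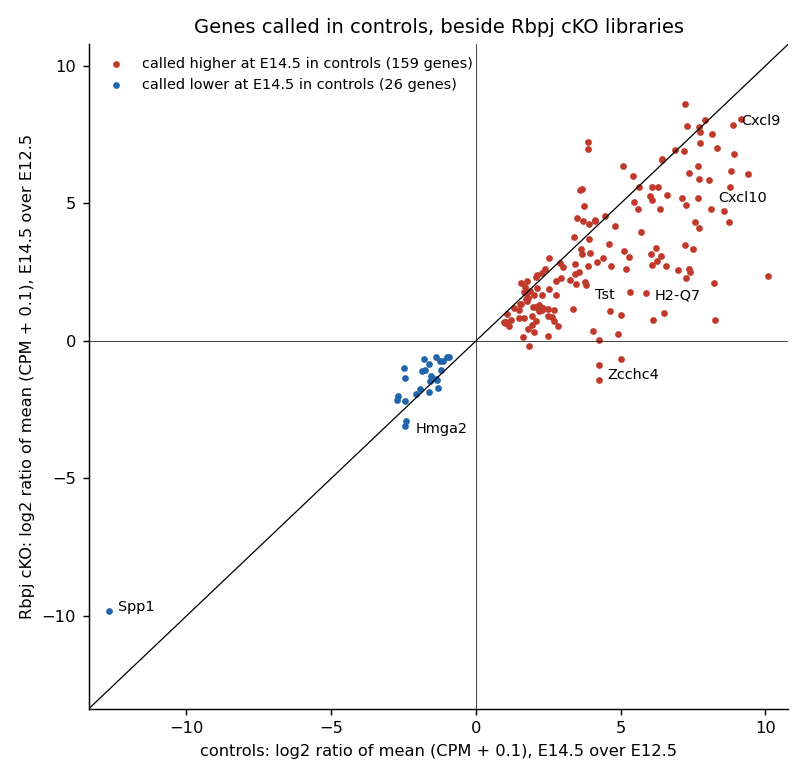
Log2 ratio of the mean (CPM + 0.1) at E14.5 over that at E12.5 for the 185 genes called in controls, in controls (x axis) and in Rbpj cKO libraries (y axis), red for the 159 called higher and blue for the 26 called lower, with a diagonal for equal ratios. All 26 blue points and nearly all red points lie on the same side of 0 in both, Zcchc4 being among the few that do not, and the choice of genes used the x axis only.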

How the data were processed

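The libraries were made by Smart-seq2 and sequenced as 75 bp paired ends, by the study's methods. Per the file header and the submitters' processing notes, the authors trimmed reads with Trimmomatic 0.32, aligned them with STAR 2.5.1a to GRCm38.p5 and deposited raw counts per gene from featureCounts without strand over GENCODE M12 (1.5.0-p3 in the header, 1.5.1 in the notes). There are no molecular identifiers, so read depth overstates the molecules counted, and overlapping or near-identical genes cannot be fully separated. Gene symbols were taken from GENCODE M21.

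The deposited counts of all 23 libraries were fitted in R 4.3.3 with edgeR 4.0.16 (quasi-likelihood F-test, TMM factors, filterByExpr), with 7 group means and 2 centred batch terms, and p-values were adjusted by Benjamini-Hochberg. CPM values use TMM library sizes and errors are SD or SE as stated. The SE of a log2 difference was computed back from the quasi-likelihood F statistic. Its spread is estimated over all 23 libraries. A fold against libraries at 0 is a lower bound set at 3 counts per library. It bounds the reads and not the molecules, and whether a count of 0 means an absent transcript was not tested. An exact permutation test of 3 against 3 libraries cannot go below p = 0.1, so no such test is given.

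Genes were named by a rule: list members called (up to 4 each way, or the 2 with the smallest p), the lineage genes of the study's heatmap, the 12 smallest adjusted p each way, the 5 largest changes each way and the 5 smallest interaction p. Others are marked as named after their values were seen, as also were H2-K1, Calr, H2-Aa, Ciita, Isg15, Krt14, Aire, Ccl25 and Il7. The lists and the comparison were chosen with earlier results of these data known, and the motif searched for the interferon element was shortened after its matches were seen. DESeq2 1.42.0 and limma-voom (limma 3.58.1, the study's own test) served as alternatives. A planned scaling to 3 housekeeping genes and the single values of some listed genes are not reported here. The scripts were tested on simulated data.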

Additional observations from a re-analysis of the deposited data

How the results depend on the processing

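Every call rests on 3 libraries against 3 in separate batches, and the number of calls varied widely with the fit. All of the 185 genes that could be tested kept their direction under every alternative. They were chosen by their difference in these same libraries, so the kept direction lends the calls no support of its own. Against 185 called in controls (159 higher, 26 lower), DESeq2 called 1284 (985, 299) and limma-voom 448 (333, 115), sharing 183 and 161 of the 185. Without a filter on low counts 519 were called (441, 78), and with a stricter filter 40 were lower. Fitting the 6 control libraries alone, without batch terms, gave 55 (47, 8), where fewer samples set the spread, the filter and the scaling. The earlier batch of each age alone gave 0 (0, 0), and the mitochondrial share as a covariate gave 79 (73, 6). Leaving out 1 library at a time gave 90 to 149 calls, 87 to 135 higher and 3 to 14 lower. For the other moves the cause was not tested. RLE factors and no batch terms kept the counts within 1.5 times, and scaling to Hprt and Ywhaz, an alternative chosen after seeing the data, gave 122 (110, 12), sharing 105 of the 185.

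With the replicate number as a block, 2 genes were called, 1 higher and 1 lower, in 14691 tested. The labels do not say that a number marks a shared litter, and the E12.5 and E14.5 libraries with equal numbers deviated from their group means with r of 0.021, -0.086 and 0.021, so the numbers were not taken as pairs.

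In the Rbpj cKO, 150 calls became 1099 with DESeq2, 393 without a filter and 95 without batch terms. The interaction count of 0 became 193 with DESeq2 and 24 without a filter, and stayed at 0 with limma-voom, RLE factors, scaling to Hprt and Ywhaz, the stricter filter and no batch terms.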
